A study of Mus musculus with 8 samples.

Results

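Ribosome biogenesis and nucleolar transcripts were compared between control and Hdac3-targeted mouse epicardial cells in 40 genes. The members were the rows of the count table whose gene name is one of 40 named genes: the Myc family, RNA polymerase I, the factors that cut, modify and assemble ribosomal RNA, and abundant nucleolar proteins. Each name was found once among the 35275 genes of the table, and all 40 members passed the filter on low counts, so none was lost. By role they fall into 7 groups: 3 Myc family genes, 5 of RNA polymerase I transcription, 3 and 4 core proteins of the box C/D and box H/ACA small nucleolar ribonucleoproteins (snoRNPs), 11 small subunit and 9 large subunit assembly factors, and 5 other nucleolar proteins.

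Ribosomes are built in the nucleolus. RNA polymerase I transcribes a long precursor RNA there, box C/D and H/ACA snoRNPs methylate and pseudouridylate it, and large sets of assembly factors fold and cut it into the RNAs of the small and large subunits. Myc, bound to DNA as a dimer with Max, is known to activate many of these genes, and growing cells usually carry more of their products.

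RNA sequencing covered 8 libraries of one epicardial cell line, the cell type that covers the heart. Of these, 4 came from cells transduced with an empty-vector lentivirus (EV) and 4 were titled as Hdac3 knockouts (KO) made with a lentiviral guide RNA and CRISPR/Cas9; the sources used here do not say whether the KO cells were a clone or a pool. Hdac3 is the histone deacetylase of the NCoR and SMRT corepressor complexes, and the comparison asked how transcripts differ when it is targeted. For KO replicate 1 the labels disagree: its title gives the knockout and its characteristics the empty vector. Its group was taken from the title, and results are also given without that library. Nothing in the labels says that replicates were separate cultures, so p-values measure only the spread between these libraries, which may be technical.

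Library totals ranged from 18063745 to 24564892 counts. Levels are given in CPM, a library's counts divided by its composition-corrected total, and 3 counts, the limit of detection, equalled 0.122 to 0.166 CPM. Hdac3 transcripts spanned 60.3 to 64 CPM in EV and 56.9 to 63.9 CPM in KO, so the level of the targeted gene does not check the group labels. EV replicate 4 stood furthest from the other EV libraries (chi-square per degree of freedom 8.95 to 13.2, beside 4.01 to 6.62 among the other 3), and results that rest on it are given without it too. Of 12 epicardial and mesothelial markers none was at 0 in all libraries, and their summed level was 4401 to 4656 CPM in EV and 4464 to 4590 CPM in KO, with Upk3b and Msln highest. Single markers moved in opposite directions, and 7 of 11 tested passed (63.6%, beside 26.0% of all genes). Higher in KO were 4, Msln (log2 fold change 0.44), Krt18 (0.54), Krt8 (1.66) and Krt19 (1.01). Krt8 and Krt19 were low, averaging 13 and 2.46 CPM in KO. The 3 lower were Upk3b (−0.34), Wt1 (−0.37) and Tcf21 (−0.74). The summed levels of markers of other cell types did not overlap between the groups. They were 6.69 to 11.2 CPM in EV and 11.3 to 29.9 CPM in KO for 20 liver genes, with the 2 highest sums in KO replicates 2 and 3. Of 9 liver genes tested, 4 were higher and none lower, and Hpx had a negative difference (−0.64) that did not pass. For 9 cardiomyocyte genes, nearly all of it Tnnt2, the sums were 145 to 158 and 112 to 129 CPM, with Nppa at 0. Of 3 tested, Tnnt2 was lower in KO (−0.33), and Myh6 (1.21) and Myl7 (−0.22) did not pass. For 7 endothelial genes, mainly Kdr, the sums were 28.3 to 30.6 and 21.3 to 23.5 CPM, although Tek of the same list was higher in KO (0.42). For 8 blood cell genes, mainly Cd68, the sums were 5.05 to 6.07 and 7.57 to 9.21 CPM, with Emr1 at 0. Their part in the results below was not tested, and in bulk RNA fewer cells of a type and less RNA per cell cannot be told apart. All 20 listed mitosis genes were lower in KO (median log2 fold change −0.73).

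Few of the ribosome biogenesis and nucleolar genes differed between KO and EV, and the differences were small. In edgeR's quasi-likelihood test, adjusted over all 12801 genes tested, 6 of the 40 members (15%) had an adjusted p below 0.05. The small subunit factors Rrp9, Rrp12, Utp15 and Nat10 and the Myb-binding protein gene Mybbp1a were higher in KO, and the box C/D scaffold gene Nop58 was lower. Among all genes tested, 26.0% passed the same threshold. The 5 members higher in KO were 12.5% of the list, against 12.6% of all genes, and the 1 lower member was 2.5%, against 13.4% of all genes. The other 34 members did not pass, 18 with a positive and 16 with a negative log2 fold change.

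The sizes of the differences were narrow. The members' log2 fold changes (KO minus EV) ran from −0.16 for Rrs1 to 0.45 for Rrp9, with a median of 0.06 beside 0.005 for all genes tested. In absolute size the median was 0.1 for the members and 0.135 for all genes, and 39 of 40 members (97.5%) stayed under 0.25 on the log2 scale, as did 73.2% of all genes. The median standard error was 0.062 for the members and 0.0758 for all genes, and its part in the difference of sizes was not tested. The 95% interval of the difference lay within a 1.25-fold change in either direction for 35 members and within 1.41-fold for 39. The exception was Rrp9, whose interval reached a 1.59-fold rise.

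**Figure D1:**
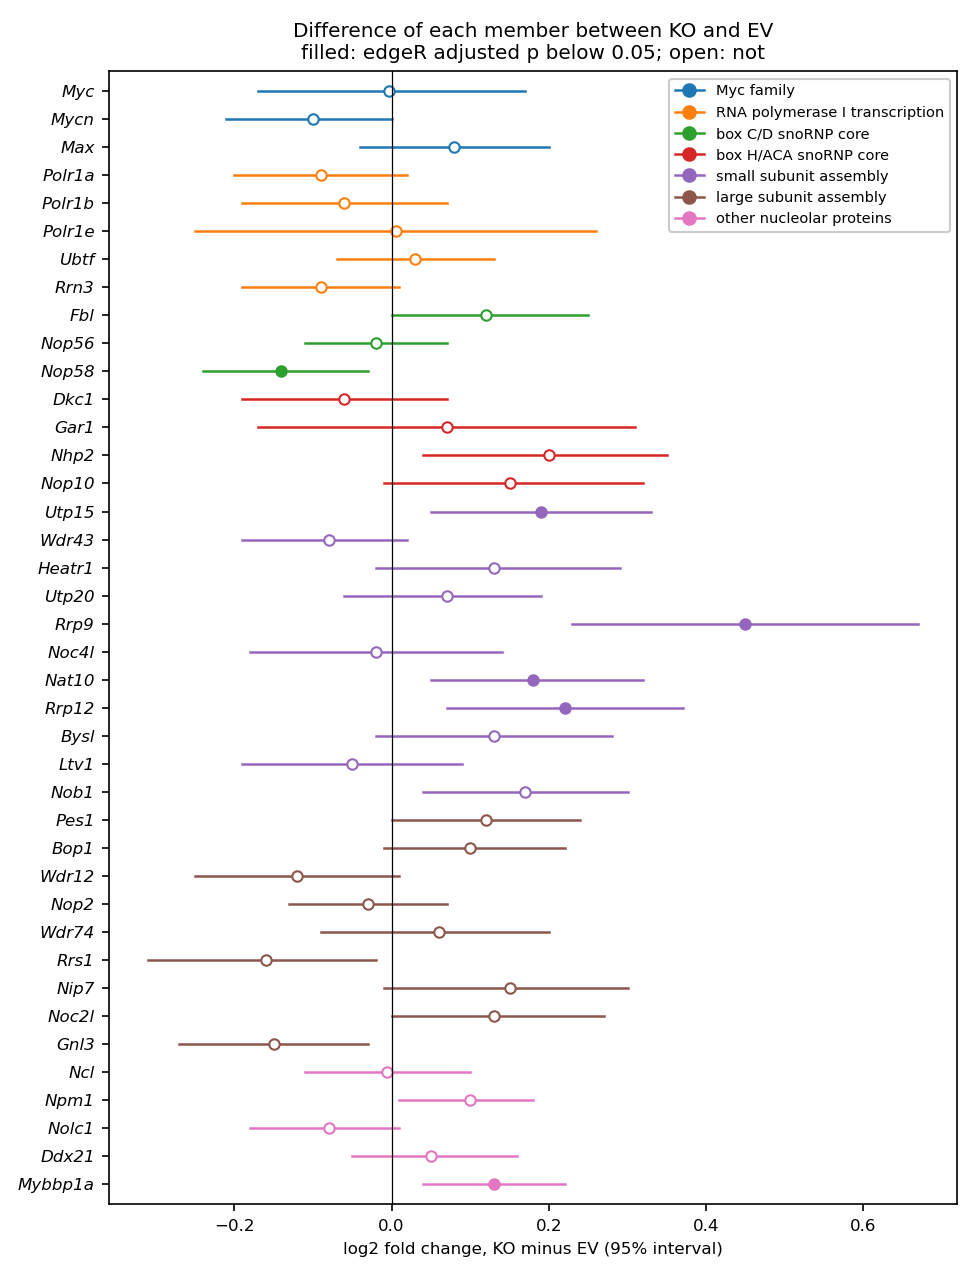
Log2 fold change of each of the 40 members, KO minus EV, with its 95% interval from edgeR's fit to the 4 EV and 4 KO libraries; colours mark the 7 role groups and filled points an adjusted p below 0.05. All intervals but that of Rrp9 lie within a 1.41-fold change in either direction.

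In 10 members (25%) the 4 KO libraries and the 4 EV libraries did not overlap, beside 26.5% of all genes tested. KO lay above EV in Fbl, Rrp9, Rrp12, Nob1, Npm1 and Mybbp1a and below it in Mycn, Rrn3, Nop58 and Wdr12. Of these 10, 6 did not pass the adjusted test.

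The balance of directions depended on how libraries were scaled. With library totals in place of TMM factors, which correct for library composition, 1 member was higher (Rrp9) and 6 were lower in KO (Mycn, Rrn3, Nop58, Rrs1, Gnl3 and Nolc1). Over all genes that scaling gave 1039 higher and 2414 lower, in place of 1613 and 1711, and moved the median of all genes from 0.005 to −0.046. Without KO replicate 1, the library whose labels disagree, 3 members passed, Utp15, Rrp9 and Nat10, all higher. Over all genes 2621 of 12956 tested passed in that fit, in place of 3324 of 12801. Without KO replicates 2 and 3, the libraries with the most liver transcripts, Rrp9 alone passed. That fit rests on 6 libraries in place of 8, and over all genes 1974 of 13146 tested passed in it. The part of liver transcripts in this change was not tested.

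Myc, the transcription factor at the head of this program, differed between the groups by less than the spread of the libraries. Myc (ENSMUSG00000022346, mm10 chromosome 15, 61985341 to 61990374) measured 19.9, 17.1, 18.8 and 18.2 CPM in EV replicates 1 to 4 and 19.4, 16.9, 17.6 and 19.8 CPM in KO replicates 1 to 4. The ranges overlap almost fully, with the highest and lowest values of each group near those of the other. The means were 18.5 ± 1.17 and 18.4 ± 1.41 CPM (SD, n = 4 each), and the log2 difference was −0.0036 (SE 0.081, 95% interval −0.17 to 0.17, edgeR adjusted p = 0.98). An exact permutation test over the 70 arrangements of the libraries, two-sided, gave p = 0.914, where the smallest p it allows is 0.0286. The interval leaves room for differences of up to 0.17 on the log2 scale in either direction.

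Mycn, the close relative of Myc best known from neural and embryonic cells, was the more abundant of the pair in every library. Per length, the deposited FPKM value of Mycn was 2.67 to 3.48 times that of Myc across the 8 libraries. Mycn (ENSMUSG00000037169, chromosome 12, 12936096 to 12941914) measured 62.5, 66.4, 63.6 and 61.9 CPM in EV and 58.2, 58.5, 61 and 59.2 CPM in KO. Every KO library lay under every EV library, by a narrow margin between 61.9 and 61 CPM. The log2 difference of −0.10 (SE 0.0496, 95% interval −0.21 to 0.00) did not pass edgeR's adjusted test (adjusted p = 0.14). Max (ENSMUSG00000059436, chromosome 12, 76937269 to 76962248), the obligate partner of both, measured 50.5, 46.9, 47.7 and 51.4 CPM in EV and 47.3, 54, 52.6 and 53.6 CPM in KO. KO replicate 1 lay among the EV libraries and the other KO libraries above them, and the log2 difference of 0.08 (SE 0.0581) did not pass (edgeR adjusted p = 0.341). Of 10 other genes of the Myc network, the Max-binding antagonist Mxi1 was lower in KO, from 43.9 ± 2.42 to 37.4 ± 1.73 CPM (SD, n = 4 each), or −0.23 on the log2 scale (edgeR SE 0.0603), and the other 9 did not pass.

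**Figure D2:**
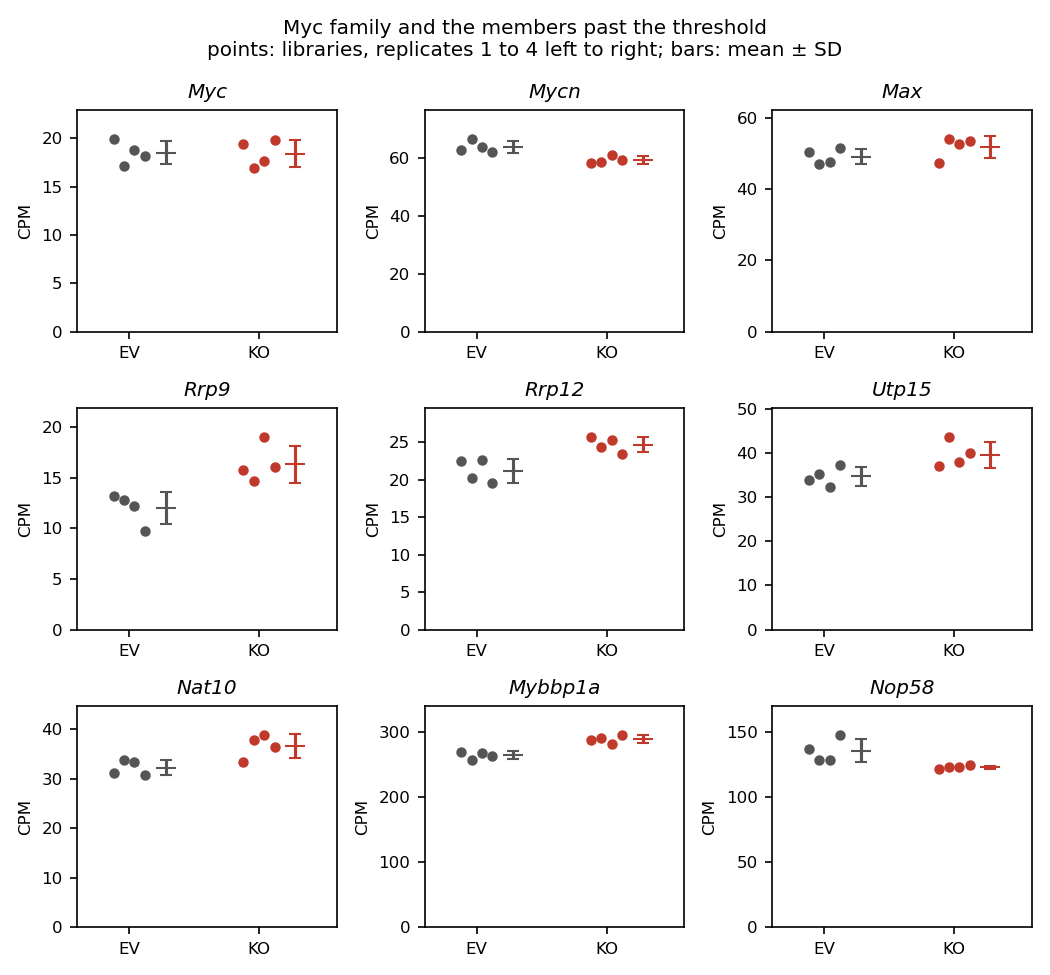
Level in CPM of the 3 Myc family genes and the 6 members past the threshold, in each EV (grey) and KO (red) library, with mean ± SD beside the points; each panel has its own axis from 0. Myc and Max overlap between the groups, Mycn, Rrp9, Rrp12, Mybbp1a and Nop58 do not, and Utp15 and Nat10 overlap by 1 or more libraries.

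The E-box CACGTG, the sequence that Myc-Max dimers bind best, is a feature that the choice of members did not use. RefSeq promoter windows of build GRCm38.p6, 250 bases before to 50 after a gene's start, were at hand for 34 of the 40 members, and 8 of these (23.5%, 95% Wilson interval 12.4 to 40%) held CACGTG, which reads the same on both strands. The same motif was in 8.09% of all 27025 genes with a window, in 11.9% of 9329 tested genes and in 15.2% of 112 other ribosome biogenesis genes. The members were chosen and not drawn at random, so the interval tests no difference between these shares, which are a description. Every CACGTG also counts as the looser E-box CANNTG, which 67.6% of the members, 75.0% of all genes, 66.5% of tested genes and 63.4% of the other ribosome biogenesis genes held. Stretches around the motif are shown for 7 of the 8 members, 5′ to 3′ along the gene's strand, with CACGTG in capitals and at most 12 bases on each side.
Max, chr12:76962234-76962263, minus strand: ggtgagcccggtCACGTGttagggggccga
Rrn3, chr16:13780472-13780501, plus strand: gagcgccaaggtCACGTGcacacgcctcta
Rrn3, chr16:13780639-13780668, plus strand: ttacgctctgctCACGTGggccgcgtcccg
Utp20, chr10:88826765-88826789, minus strand: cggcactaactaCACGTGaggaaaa
Wdr43, chr17:71616220-71616249, plus strand: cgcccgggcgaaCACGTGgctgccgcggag
Nop2, chr6:125131811-125131840, plus strand: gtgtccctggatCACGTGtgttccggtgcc
Pes1, chr11:3963965-3963994, plus strand: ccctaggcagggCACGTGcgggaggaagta
Mybbp1a, chr11:72441355-72441376, plus strand: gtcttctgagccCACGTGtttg
Rrn3 held the motif at both places shown, and Ltv1 was the eighth gene with it. The 8 members with CACGTG had a median log2 fold change of 0.02 (−0.09 to 0.13) and 1 call, Mybbp1a. The 26 without it had a median of 0.04 (−0.15 to 0.45) and 4 calls. A match describes these letters in this window and not a bound site.

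No gene of RNA polymerase I transcription passed the test, in edgeR, DESeq2 or limma-voom, and 0 of the 5 had an unadjusted p below 0.05 in edgeR. Their log2 fold changes were −0.09 for Polr1a and −0.06 for Polr1b, the 2 largest subunits, 0.00615 for the subunit gene Polr1e, 0.03 for Ubtf, which binds and opens ribosomal DNA, and −0.09 for Rrn3, the initiation factor that brings the polymerase to the promoter. Rrn3 came closest, with 102 ± 1.43 CPM in EV and 95.6 ± 4.36 CPM in KO (SD, n = 4 each) and groups that did not overlap (edgeR adjusted p = 0.183). Polr1e was the member with the lowest level per length (2.33 FPKM), and its EV libraries spread from 6.03 to 7.96 CPM around KO libraries between 6.9 and 7.02 CPM. Among 11 other genes of the polymerase and its initiation complex, Taf1c, a subunit of the promoter selectivity factor, was higher in KO, from 7.36 ± 0.586 to 9.24 ± 1.01 CPM (SD, n = 4 each), or 0.34 on the log2 scale (edgeR SE 0.111, adjusted p = 0.0324). Its groups overlapped, since KO replicate 1 measured 8.01 CPM and EV replicate 1 8.22 CPM.

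Nop58, which with Nop56 forms the scaffold of box C/D snoRNPs, was the only member lower in KO at the threshold. Nop58 (ENSMUSG00000026020, chromosome 1, 59684971 to 59719044) measured 137, 129, 129 and 148 CPM in EV replicates 1 to 4 and 122, 123, 123 and 125 CPM in KO. The groups did not overlap, the KO libraries lay close together, and EV replicate 4 was the highest of all. The means were 136 ± 8.85 and 123 ± 1.25 CPM (SD, n = 4 each), and the log2 difference was −0.14 (SE 0.0488, edgeR adjusted p = 0.0452). The call was lost without EV replicate 1 (edgeR adjusted p = 0.0583), without EV replicate 4 (−0.09, adjusted p = 0.126) and without any KO replicate (adjusted p from 0.0756 to 0.109). Nop56 did not pass, at 111 ± 2.9 CPM in EV and 109 ± 2.61 CPM in KO. Fbl, the methyltransferase of the same particle, was 71.2 to 72.9 CPM in EV replicates 1 to 3 but 60.1 CPM in EV replicate 4, beside 73.6 to 78.3 CPM in KO. Its log2 fold change of 0.12 did not pass (edgeR adjusted p = 0.135).

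The box H/ACA core genes had no call in edgeR, DESeq2 or limma-voom, and 1 of the 4, Nhp2, had an unadjusted p below 0.05 in edgeR. Log2 fold changes were −0.06 for the pseudouridine synthase gene Dkc1 and 0.07, 0.20 and 0.15 for its partners Gar1, Nhp2 and Nop10. Nhp2 missed the threshold by little, with 40 ± 3.83 CPM in EV and 45.9 ± 3.86 CPM in KO (SD, n = 4 each, edgeR adjusted p = 0.0561), and its groups overlapped. Gar1 spread the most, from 14.5 to 21.2 CPM in EV and from 16.4 to 22.6 CPM in KO. Of 14 further genes of snoRNP assembly none passed in edgeR, DESeq2 or limma-voom, and 2 had an unadjusted p below 0.05 in edgeR.

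Small subunit assembly held 4 of the 6 calls, all higher in KO. They were 36.4% of its 11 genes, beside 12.6% of all genes tested, and the group's median log2 fold change was 0.13. Of 46 other small subunit genes 6.52% passed in either direction, beside 26.0% of all genes. Of these, 2 were higher and 1 lower, and the median of the 46 was 0.04. With library totals in place of TMM factors, Rrp9 alone of the 4 passed. Rrp9, the protein of the U3 snoRNP that joins the first cuts of the precursor, had the largest difference of all members. Rrp9 (ENSMUSG00000041506, chromosome 9, 106475963 to 106485424) measured 13.2, 12.8, 12.2 and 9.77 CPM in EV and 15.7, 14.7, 19 and 16 CPM in KO. Every KO library exceeded every EV library, EV replicate 4 was the lowest and KO replicate 3 the highest. The means were 12 ± 1.54 and 16.3 ± 1.86 CPM (SD, n = 4 each), and the log2 difference was 0.45 (SE 0.105, 95% interval 0.23 to 0.67, edgeR adjusted p = 0.00365). The difference passed in all 18 alternative fits, with log2 fold changes from 0.36 to 0.5, among them those without EV replicate 4 (0.36) and without KO replicate 3 (0.37). Rrp9 overlaps Parp3 on the opposite strand, and without the strand setting of the counting their reads cannot be told apart. Parp3 itself had a log2 difference of 0.16 (edgeR adjusted p = 0.0874).

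Rrp12, which takes part in the maturation and export of pre-ribosomes (ENSMUSG00000035049, chromosome 19, 41862852 to 41896153), measured 22.5, 20.2, 22.7 and 19.5 CPM in EV and 25.7, 24.4, 25.3 and 23.5 CPM in KO. The groups did not overlap, and the log2 difference was 0.22 (SE 0.0729, edgeR adjusted p = 0.031). With EV replicate 2 or 4, or KO replicate 1 or 3, left out the edgeR adjusted p was between 0.0752 and 0.0877. Utp15, of the subcomplex that also acts in precursor transcription (ENSMUSG00000041747, chromosome 13, 98246845 to 98262992), measured 34, 35.4, 32.4 and 37.3 CPM in EV and 37.2, 43.7, 38 and 40.1 CPM in KO. The groups touched at EV replicate 4 and KO replicate 1, and KO replicate 2 stood highest. The log2 difference was 0.19 (SE 0.0666, edgeR adjusted p = 0.0402). Leaving out EV replicate 1, 2 or 3, or KO replicate 2 or 4, ended the call (edgeR adjusted p from 0.0671 to 0.132).

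Nat10, the acetyltransferase of small subunit RNA (ENSMUSG00000027185, chromosome 2, 103721256 to 103761270), measured 31.1, 33.8, 33.3 and 30.7 CPM in EV and 33.3, 37.8, 38.8 and 36.3 CPM in KO. KO replicate 1 lay within the EV range and the other KO libraries above it. The log2 difference was 0.18 (SE 0.0648, edgeR adjusted p = 0.0452). The call held in 6 of 18 alternatives; with EV replicate 1, 3 or 4, or KO replicate 2, 3 or 4, left out the edgeR adjusted p was between 0.0629 and 0.14. Nob1, the endonuclease that makes the last cut of small subunit RNA, stood just outside the threshold, with 32.3 ± 2.01 CPM in EV and 36.3 ± 1.06 CPM in KO (SD, n = 4 each), or a log2 difference of 0.17 (edgeR adjusted p = 0.051) and groups that did not overlap. The other 6 members of this group did not pass. Their log2 fold changes were 0.13 for Heatr1 and −0.08 for Wdr43, partners of Utp15 in the early processome, 0.07 for Utp20 and −0.02 for Noc4l, and 0.13 for Bysl and −0.05 for Ltv1, which act on later precursors.

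No large subunit assembly gene passed in edgeR, DESeq2 or limma-voom, and 3 of the 9 had an unadjusted p below 0.05 in edgeR (Noc2l with a positive difference, Rrs1 and Gnl3 with a negative one). Pes1, Bop1 and Wdr12 encode the 3 proteins of the PeBoW complex, which acts on the precursor of the large subunit RNAs. Their log2 fold changes were 0.12, 0.10 and −0.12, and of these Wdr12 alone had groups that did not overlap, at 33 to 35.9 CPM in EV and 29.7 to 32.9 CPM in KO (edgeR adjusted p = 0.175). Bop1 overlaps Mroh1 on the opposite strand, itself higher in KO (0.14, edgeR adjusted p = 0.0154), so part of its count may be shared. Rrs1, a loading factor of the large subunit particle, was 31.9 to 40.6 CPM in EV and 31.3 to 32.5 CPM in KO. Its log2 fold change of −0.16 was the most negative of all members and did not pass (edgeR adjusted p = 0.0978). Gnl3, the GTP-binding protein nucleostemin, was 76.4 ± 6.4 CPM in EV and 69.1 ± 1.24 CPM in KO (SD, n = 4 each), or a log2 difference of −0.15 that did not pass either (edgeR adjusted p = 0.0674). Among the 18 alternative fits Gnl3 passed in 6 and Rrs1 in 4, both lower, and Pes1 in 1, higher. The remaining 4 had log2 fold changes of −0.03 (the RNA methyltransferase gene Nop2), 0.06 (Wdr74), 0.15 (Nip7) and 0.13 (Noc2l).

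Mybbp1a was the called member among the other nucleolar proteins in edgeR and limma-voom, and DESeq2 called Npm1 as well. This Myb-binding nucleolar protein gene (ENSMUSG00000040463, chromosome 11, 72441355 to 72451768) measured 269, 256, 268 and 262 CPM in EV and 287, 291, 281 and 295 CPM in KO. The groups did not overlap and each was tight. The means were 264 ± 6.11 and 289 ± 6.02 CPM (SD, n = 4 each), and the log2 difference was 0.13 (SE 0.0409, edgeR adjusted p = 0.0241). When EV replicate 2 or KO replicate 1 or 4 was left out, the edgeR adjusted p was between 0.0552 and 0.0769. Npm1, the histone chaperone nucleophosmin, measured 1343, 1296, 1330 and 1273 CPM in EV and 1381, 1432, 1413 and 1384 CPM in KO. Again no KO library fell into the EV range, yet the log2 difference of 0.10 (SE 0.0398) did not pass in edgeR (adjusted p = 0.0797) and passed in DESeq2 (adjusted p = 0.0228). Nucleolin (Ncl), Nolc1, a chaperone of snoRNPs, and the RNA helicase gene Ddx21 had log2 fold changes of −0.0057, −0.08 and 0.05 and overlapping groups.

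**Figure D3:**
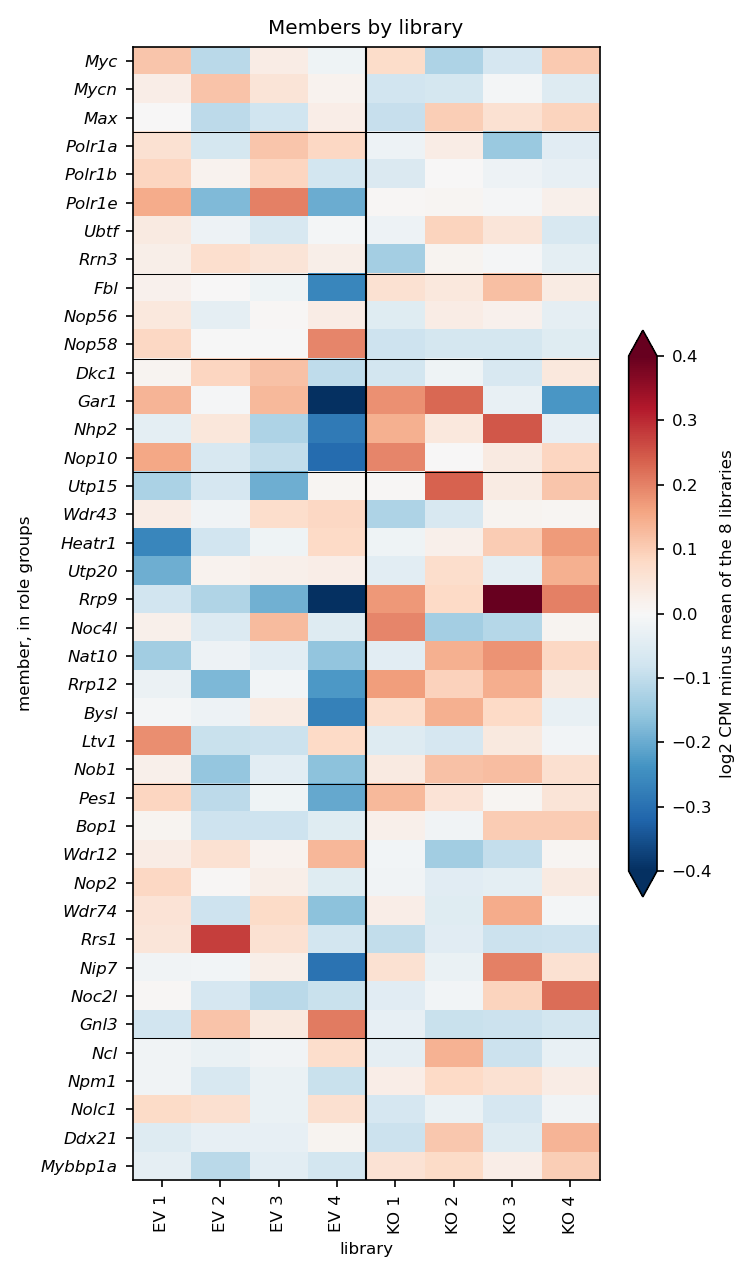
Log2 CPM of each member in each library minus its mean over the 8 libraries, members ordered by role group and colours capped at 0.4 in either direction; the vertical line parts EV from KO. EV replicate 4 holds the lowest value of 17 members, and no role group is uniformly red or blue in all 4 KO libraries.

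Levels per length differed far more between members than between groups. In deposited FPKM values averaged over the 8 libraries, Npm1 stood at 830, Ncl at 101, Fbl at 62.2 and Mybbp1a at 62, and the lowest was Polr1e at 2.33, a 357-fold range. The median member was at 19.1 FPKM, and 33 of 40 lay between 5 and 50 FPKM. Max ranked 15th (25.2 FPKM), Mycn 18th (23) and Myc 34th (7.72). In 27 of the 39 neighbouring pairs of this order the levels differed by less than 1 SD over the libraries. As a share of all counts the 40 genes together took 0.444 to 0.466% of each library.

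One library, EV replicate 4, stood apart from the other EV libraries, and it touched many members. It held the lowest value of all 8 libraries for 17 of the 40 members, beside 21.2% of all genes tested. Against EV replicates 1 to 3 it lay below all 3 in 19 members (47.5%, beside 32.3% of all genes) and above all 3 in 10. All 5 members with a gene length of up to 1500 bases, Fbl, Gar1, Nhp2, Nop10 and Wdr74, lay below all 3, as did 52.3% of all genes of that length, and their median difference was −0.26 on the log2 CPM scale. Of the 19 members longer than 3000 bases, 5 lay below (26.3%, beside 21.5% of all genes of that length) and 8 above (42.1%, beside 44.1%). Across members the difference of EV replicate 4 went with length (Spearman rho 0.55, Pearson r 0.60, n = 40 genes measured in the same 4 libraries), and across all 12801 genes tested the values were 0.36 and 0.33. Members are not independent replicates, and these correlations are a description.

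**Figure D4:**
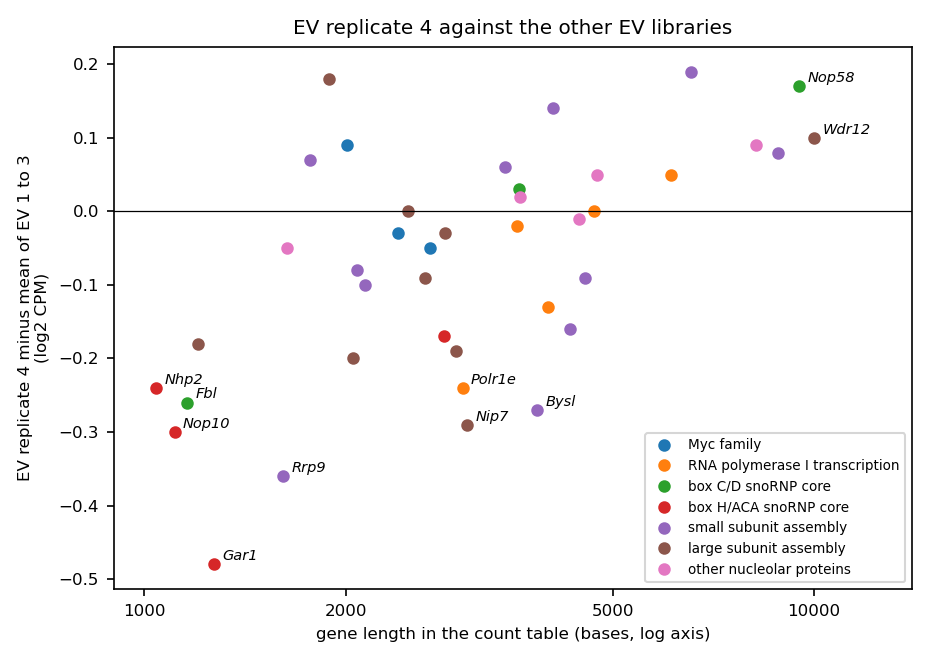
Difference in log2 CPM between EV replicate 4 and the mean of EV replicates 1 to 3 against gene length in bases (log axis), for each of the 40 members, coloured by role group. The 5 members of up to 1500 bases lie below 0, and 8 of the 19 longer than 3000 bases lie above the values of all 3 other EV libraries.

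Without EV replicate 4 the member calls changed. Utp15, Rrp9 and Mybbp1a were higher and Rrs1 was lower, and the median log2 fold change of the members moved from 0.055 to 0.023. Over all genes 3146 of 12948 tested passed in that fit, in place of 3324 of 12801. The difference of Gar1 turned from 0.07 to −0.04 and that of Fbl was 0.06 against the mean of EV replicates 1 to 3.

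Some members carry small nucleolar RNAs (snoRNAs) in their introns, so that 1 transcript yields both a protein and guide RNAs. In GENCODE M21 this held for 6 of the 40 (15%), Nop56, Nop58, Dkc1, Wdr43, Gnl3 and Ncl, with 19 snoRNA genes in all, beside 206 of 11904 tested protein-coding genes (1.73%). The log2 fold changes of these 6 lay between −0.15 and −0.01, with a median of −0.07, and Nop58 was the one called. Of 15 listed noncoding host genes of snoRNAs, 8 were tested and the others were not analysed here. Gas5 and Snhg18 passed (25%, beside 26.0% of all genes), and the log2 fold changes of the 8 ran from −0.13 to 0.39. Gas5 averaged 81.2 ± 12.5 in EV and 106 ± 9.41 CPM in KO (SD, n = 4 each), or 0.39 on the log2 scale (edgeR SE 0.0826), and Snhg18 from 28.8 ± 1.34 to 33.5 ± 2 CPM (0.22, edgeR SE 0.0654). Whether coding and noncoding hosts differ was not tested, and the snoRNAs themselves were not analysed here.

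Further features bear on how well the counts belong to the members. Leaving aside the snoRNA genes in introns given above, a gene on the opposite strand overlaps 13 of the 40, and no overlap on the same strand was found. Of the overlapping genes, Mroh1 at Bop1, given above, Mpp1 at Dkc1 (0.26, edgeR adjusted p = 3.96e-04) and Ccnd3 at Bysl (−0.28, edgeR adjusted p = 0.00174) differed between the groups. Pseudogenes at least 95% identical over 100 bases or more were found for 6 members, and the counts assigned to them came to at most 1.11% of the member's own, for Npm1.

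The wider program gave a like picture. In 5 further lists of ribosome biogenesis genes, 143 genes were tested, of which 9 were higher and 6 lower in KO (10.5%, beside 26.0% of all genes), and their log2 fold changes had a median of 0.01. Among 46 small subunit genes, Utp14a rose from 13.3 ± 0.624 to 17.3 ± 0.915 CPM (SD, n = 4 each; 0.38, edgeR SE 0.0816) and the kinase gene Riok3 rose by 0.21 on the log2 scale, while Wdr75, a partner of Utp15, was lower (−0.20). Among 56 large subunit genes, 6 were higher and 3 lower. Mdn1, the giant AAA ATPase that strips factors from the large subunit, rose from 24.6 ± 2.62 to 33.4 ± 2.51 CPM (SD, n = 4 each; 0.44, edgeR SE 0.0788). Rpf1 (−0.29) and the export adaptor gene Nmd3 (−0.23) were lower. Of 16 exosome and nuclease genes, the exosome subunit gene Exosc10 (−0.20) and Isg20l2 (−0.17) were lower. None was higher in edgeR or DESeq2, or at an unadjusted p below 0.05 in edgeR. With library totals in place of TMM factors, 3 of the 143 were higher and 15 lower.

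Ribosomal protein genes and other Myc targets were counted beside the members. Of 75 cytosolic ribosomal protein genes tested, 57 were higher in KO in edgeR (44 in DESeq2 and 59 in limma-voom). In edgeR that was 76.0% of them, beside 12.6% of all genes tested. None was lower in any of the 3, or at an unadjusted p below 0.05, and the median log2 fold change was 0.24. In the deposited FPKM values 16 or 17 of them were higher, depending on the pseudocount, and reads of these genes may be shared with their many pseudogenes. Of 76 mitochondrial ribosomal protein genes 10 (13.2%, beside 12.6% of all genes) were higher in edgeR and 5 in DESeq2. None was lower in either or at an unadjusted p below 0.05 (median 0.08). All tested genes of up to 1500 bases had a median log2 fold change of 0.09, and the part of gene length in these lists was not tested. Among 22 known Myc targets outside the nucleolus 4 (18.2%, beside 12.6% of all genes in edgeR) were higher in KO in edgeR and in DESeq2. None was lower in either, and at an unadjusted p below 0.05 in edgeR 7 were higher and none lower. The 4 were Apex1 (0.54, edgeR SE 0.192), a DNA repair enzyme gene, Hspe1 (0.19), a mitochondrial chaperonin gene, Cad (0.18), of pyrimidine synthesis, and Eif5a (0.16), a translation factor gene named to complete the count after its value was seen. Apex1 varied widely, from 6.17 to 15 CPM in EV and from 12.6 to 18 CPM in KO. The median of these 22 was 0.03.

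**Figure D5:**
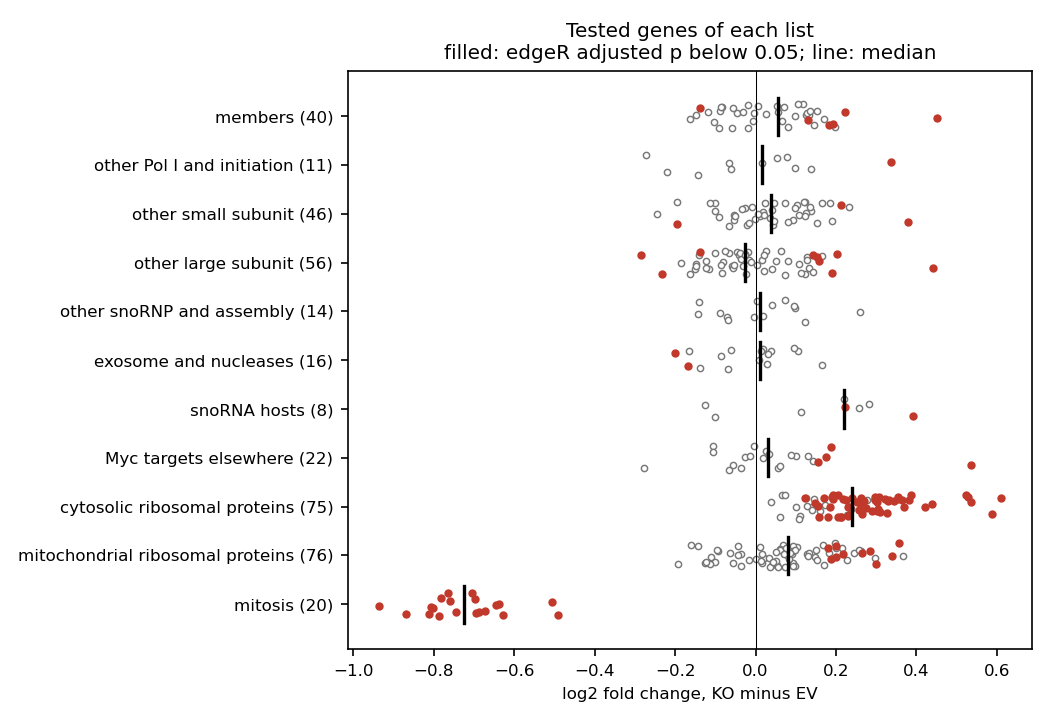
Log2 fold change, KO minus EV, of each tested gene in the members and in the comparison lists (number of genes in parentheses), with filled red points for an edgeR adjusted p below 0.05 and a line at the median. The members centre at 0.06, the cytosolic ribosomal protein genes at 0.24 and the mitosis genes at −0.73.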

How the data were processed

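The labels give total RNA as the material and an Illumina instrument, and the sample titles name the 8 libraries mRNA-seq. The authors deposited a table of raw, whole-number counts for each gene and a table of FPKM values, which equal counts over gene length and library total for 100% of nonzero values within 1e-06. The submitters' processing notes name mm10 and DESeq 1.6.3. Aligner, counter, annotation release and strandedness were not given in the sources used here. Members and gene lists were chosen with earlier results of these data known.

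Counts were tested with edgeR 4.0.16 in R 4.3.3: TMM factors, filterByExpr defaults (minimum count 10, minimum total 15), no covariate, quasi-likelihood F test, two-sided, Benjamini-Hochberg over the 12801 genes that passed, threshold 0.05. Levels are TMM-scaled CPM. The standard error is the log2 fold change divided by the square root of F. The permutation test used log2(CPM + 0.5). The fit was also run on simulated counts with a fixed spread and no differences between libraries besides depth and group, unlike these data. No result above rests on that run. No replicate was a duplicate: over genes with at least 20 counts, chi-square per degree of freedom between pairs ran from 4.01 to 13.2. Per-library values are given for the Myc family and called members, and from each other list up to 3 genes with the smallest adjusted p. Members without a promoter entry were Rrp12, Npm1, Bop1, Rrs1, Myc and Fbl. Pseudogenes were searched with BLAST+ 2.17.0 against GENCODE M21. Alternatives were DESeq2 1.42.0, limma 3.58.1 (voom, and FPKM on the log2 scale with pseudocounts 1 and 0.1), other scaling and filters, a replicate block, and libraries left out.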

Additional observations from a re-analysis of the deposited data

Results flagged for a closer look

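Within each group of 4 libraries, the highest or lowest value was set against its nearest neighbour, as a share of the group's range. Of the 80 groups looked at (40 members in EV and in KO), 5 had 1 library far from the other 3, where chance flags about 1 in 20, or 4 groups. All 5 were in EV. EV replicate 4 was the lowest for Fbl (60.1 CPM, the next at 71.2) and Nip7 (30.5 CPM, the next at 37) and the highest for Ncl (869 CPM, the next at 819). EV replicate 1 was the lowest for Utp20 (60.4 CPM, the next at 69.9), and EV replicate 3 for Nolc1 (108 CPM, the next at 115).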

How the results depend on the processing

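Members called higher numbered 5 and lower 1; with library totals alone the counts were 1 and 6, in FPKM 1 and 7 with either pseudocount, without KO replicates 2 and 3 they were 1 and 0, and without a filter 2 were lower. With each library left out in turn, 3 to 6 were higher and 0 to 1 lower. All genes called then numbered 2621 to 3359, in place of 3324. All genes higher numbered 1613, and 1039 with library totals alone, 922 and 926 in FPKM; without KO replicates 2 and 3, 880 were higher and 1094 lower (1974 in all). The members' median of 0.055 became 0.004 with library totals and 0.003 in FPKM with either pseudocount, and 0.023 to 0.073 with a library left out. Of the other ribosome biogenesis genes, 9 were higher, 3 with library totals, 3 in FPKM with either pseudocount, 3 without KO replicates 2 and 3, and 5 to 13 with a library left out; 6 were lower, 15 with library totals, 14 and 15 in FPKM and 1 without KO replicates 2 and 3. Cytosolic ribosomal protein genes higher fell from 57 to 16 and 17 in FPKM, and the promoter share rose to 67.6% with CANNTG. The causes of these changes were not tested. The fit without KO replicates 2 and 3 also rests on 6 libraries in place of 8. FPKM values are themselves scaled by library totals, and every CACGTG is also a CANNTG, so that share could not fall. Rrp9 was called and all 20 mitosis genes were lower in every fit.

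Signs turned in members whose difference was near 0. With a library left out, Polr1e ran from −0.06 to 0.08, Gar1 from −0.04 to 0.16, Noc4l from −0.09 to 0.02, Ltv1 from −0.08 to 0.0044 and Ncl from −0.05 to 0.02. Myc was 0.09 without KO replicates 2 and 3 and between −0.04 and 0.04 with a library left out. Polr1e was −0.04 with library totals, −6.45e-04 without a filter and −0.03 and −0.04 in FPKM. Ubtf was −0.02, −0.02 and −0.03 in those scalings and −0.03 without KO replicates 2 and 3, Noc4l was 0.09 there, and Ddx21 was −7.76e-04 and −8.84e-04 in FPKM.

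Deviations from the group means correlated weakly between same-numbered EV and KO libraries (0.124, −0.034, 0.063 and 0.091 for replicates 1 to 4). EV replicates 1, 3 and 4 correlated best with the KO library of their own number, and EV replicate 2 with KO replicate 3 (0.043). Values this small cannot settle whether the numbers pair the libraries. With the replicate number as a block, 7 members were higher and 2 lower, and 10 of the other biogenesis genes were lower. Over all genes 3737 passed with the block, in place of 3324.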
